A study of Mus musculus with 14 samples.

Results

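The change of the transcriptome from the early to the late 2-cell stage was measured in mouse embryos that were kept without lactate, in 4 of the 14 RNA-seq libraries of the series. They were chosen by their labels alone: 2 early 2-cell G&N-L libraries at 30 h after the injection of hCG (human chorionic gonadotropin, which triggers ovulation) and 2 late 2-cell G&N-L libraries at 54 h. G&N-L is modified KSOM, a culture medium for preimplantation embryos, without its lactate and with 5 μM Gne140, an inhibitor of the lactate dehydrogenases LDHA and LDHB, and 50 μM NMN (nicotinamide mononucleotide), which supplies NAD. The embryos came from ICR mice, an outbred stock, were moved to this medium at 24 h, and were collected in pools of 5 per library, so neither sex nor single-embryo variation can be read. The comparison groups, early and late 2-cell G&N, had the same inhibitor and NMN with 10 mM lactate, 2 libraries each, so every group used here carried Gne140. The titles give these groups, whereas the treatment field of the early G&N-L libraries does not mention lactate and that of the early G&N libraries gives Gne140 alone.

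A fertilized mouse egg starts with RNA that the oocyte made and stored. Transcription from the embryo's own genome, zygotic genome activation (ZGA), begins weakly at the end of the 1-cell stage (minor ZGA) and then broadly in the second part of the 2-cell stage (major ZGA), when genes for ribosomes, RNA processing and metabolism come on. Over the same hours the stored maternal RNAs are deadenylated and degraded, first by proteins already in the egg and then with the help of newly transcribed factors. A late against early comparison therefore mixes gain of embryonic and loss of maternal RNA, and in whole-embryo libraries more transcription, slower decay and a change in total RNA per embryo cannot be told apart.

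The early libraries held 47998020 and 23473359 counts and the late ones 34935873 and 35663798, and a count of 0 allows up to 3 counts, or 0.0731 and 0.141 CPM (counts scaled to the size of the library) early and 0.0756 and 0.0745 late. The reads carried no molecular identifiers, so such limits cover counting error only. Replicates correlated across genes at r = 0.963 early and 0.933 late. The share of counts on mitochondrial genes was 3.13% and 2.65% early and 6.12% and 6% late, and it also rose with lactate, from 2.17% and 3.85% to 6.77% and 6.84%. Its part in the other changes was not tested. Among markers of other cells that could stick to an embryo, 15 cumulus cell genes summed to 16.9 to 36.8 CPM per library. Ptx3 and Inhba were at 0 in all 4, while Cyp19a1 was at 15.58 and 20.91 CPM early and 6.05 and 6.456 CPM late. Kitl was at 9.776 and 9.445 CPM early and 8.647 and 2.483 CPM late. Amhr2 went the other way, from 0.0731 and 0 CPM to 2.62 and 1.39 CPM, and was not called. Of the 7 cumulus genes tested, 2 had a positive and 5 a negative log2 fold change. The beta-globin genes Hbb-bs and Hbb-bt were at 0. Of 3 sperm genes tested 0 were called, with 1 positive and 2 negative log2 fold changes. Prm2 was at 13.85 and 12.88 CPM early and 5.949 and 3.7 CPM late. Akap4 was at 0.853 and 2.44 CPM early and 0.655 and 0.199 CPM late. Odf1 went up, from 1.98 and 0.752 CPM to 3.45 and 4.67 CPM. Prm1, not tested, was at 0 and 0 CPM early and 1.13 and 0.0745 CPM late. The alpha-globin gene Hba-a1 was at 0.341 and 0.235 CPM early and 17.7 and 34.2 CPM late, and the hyaluronan-binding cumulus gene Tnfaip6 was at 0 and 0 CPM early and 8.6 and 3.33 CPM late. Both were called higher, and both were also called higher with lactate; Hba-a1 has a near-identical copy, Hba-a2, so its reads are uncertain. The part of such cells in the results was not tested.

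Of 18604 genes tested without lactate, 1111 (5.97%) were higher and 1092 (5.87%) were lower at 54 h than at 30 h at an adjusted p under 0.05. Every call here comes from the quasi-likelihood test of edgeR, adjusted after Benjamini and Hochberg. The rises were large and the falls moderate: the median log2 fold change of the called genes was 4.61 for those higher and -1.74 for those lower. A log2 fold change of at least 2 was reached by 860 of the higher and 422 of the lower genes. Over all genes tested the median was 0.15, and each change is to be read against that shift. The scaling sets the balance: on library totals without TMM the median was 0.51, with 1819 genes higher and 685 lower, so 72.6% of calls were higher instead of 50.4%. The calls rest on both libraries of each stage: without late replicate 1, 115 genes were higher and 220 lower, without late replicate 2, 255 and 423, without early replicate 1, 906 and 487, and without early replicate 2, 759 and 474, and all 2203 called genes kept their direction each time. The genes were called on these same libraries, so the kept direction is no independent support. In simulated libraries of this design the share of false calls was above the nominal one. Calls near the threshold are therefore less certain. The counts of called list members given further on shrink likewise with a library left out. They are given on library totals too where the balance of rises and falls changes. Those counts are to be read against the 1819 higher and 685 lower of all 18604 genes on that scale. Without late replicate 1, 0 members of the pluripotency, stress and mRNA decay lists were called by edgeR, 1 mitochondrial ribosomal protein gene was lower, and 2 metabolism, 2 translation, 2 chaperone and 2 replication genes were lower with 0 higher. In the respiratory chain and meiotic lists 1 was then higher and 2 were lower, and 7 proteasome, 5 nuclear pore and 5 oocyte chromatin genes were lower. Both late libraries lay above both early ones for 35.3% of the genes tested and below them for 27.6%. The labels do not say that the libraries of a group came from separate cultures, so these p-values measure the spread between these libraries, and the smallest two-sided p of an exact permutation test with 2 libraries on each side is 0.333.

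**Figure D1:**
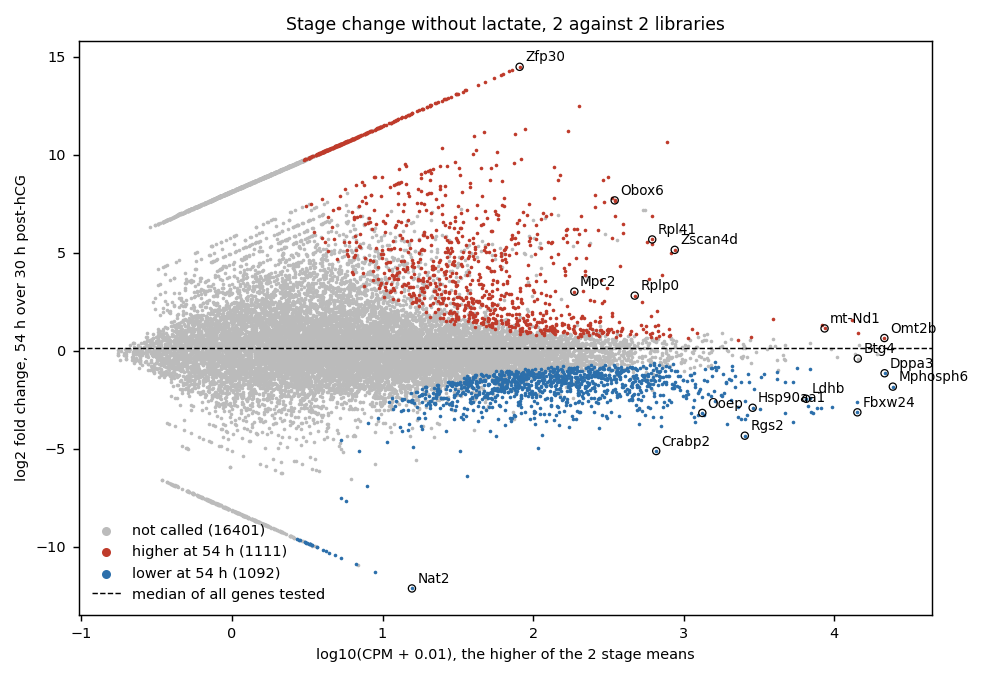
Each point is 1 of the 18604 genes tested without lactate, at its level (log10 of CPM + 0.01, the higher of both stage means) and its fitted log2 fold change, 54 h over 30 h; red and blue points passed an adjusted p under 0.05. The straight lines of points at the upper and lower left are genes with 0 counts in a whole stage, whose fitted change depends on the prior count; rises reached larger log2 fold changes than falls, and among the most abundant genes at the right Fbxw24 and Mphosph6 fell while Omt2b and mt-Nd1 rose.

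Many genes went from silent to detected. A total of 763 genes had at most 3 counts in each early library and at least 1 CPM in both late libraries, here on library totals without TMM, 584 of them with 0 counts in both early libraries, while 71 genes went the other way. The 763 comprised 453 protein-coding genes, 156 lncRNAs and 114 pseudogenes, and 232 of them carried Gm names. Of these, 305 were called higher, a share that the choice of genes itself raises.

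The largest named switch was Zfp30, a KRAB zinc finger gene (mm39 chromosome 7, 29483373 to 29496011), with 0 counts in the early libraries and 87 and 75.7 CPM in the late ones. Measured against 3 counts over both early libraries, it was at least 1689-fold higher (edgeR adjusted p = 0.00489). By the same measure Tex101, a cell-surface protein of germ cells, was at least 1265-fold higher, at 0 counts early and 46.3 and 75.5 CPM late. The tetraspanin gene Cd63 went from 0 counts to 57.5 and 53.2 CPM, at least 1149-fold. No early read was assigned to any of the 3. Gpn3, a GTPase needed to bring RNA polymerase II into the nucleus, went from 0 counts to 55.2 and 30.6 CPM, and Gt(ROSA)26Sor, the noncoding RNA of the Rosa26 locus, from 0 to 51.3 and 44.4 CPM. Psat1, an enzyme of serine synthesis, went from 0 to 32.3 and 22.4 CPM, and Hs3st1, a heparan sulfate sulfotransferase, from 0 to 43.7 and 27.1 CPM. Spopfm1, annotated as a pseudogene with near-identical relatives whose reads cannot be assigned with certainty, went from 0 to 43.6 and 24.3 CPM.

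The Y chromosome is absent from the oocyte, so its single-copy genes cannot be stored as maternal RNA. They were singled out after the values were seen. Eif2s3y, a translation initiation factor subunit, had 0 counts in both early libraries and 19.8 and 21.9 CPM in the late ones (edgeR adjusted p = 0.00854). The histone demethylase gene Uty went from 0 counts to 9.93 and 19.8 CPM (edgeR adjusted p = 0.0151), the deubiquitinase gene Usp9y from 0 to 13.2 and 3.75 CPM (adjusted p = 0.0319) and the zinc finger gene Zfy1 from 0 to 3.05 and 9.51 CPM (adjusted p = 0.0365). Zfy2, at 16.1 and 1.29 CPM late, and the RNA helicase gene Ddx3y, at 3.98 and 1.29 CPM, also had no early count but were not called, at edgeR adjusted p of 0.0623 and 0.0632. The late libraries lay far apart for Zfy2, and the number of male embryos in each pool of 5 is not given. Of the 18 Y-linked genes tested, 4 were called higher and 0 lower by edgeR, where 5.97% and 5.87% of all genes were. Multicopy Y genes had early counts, as Gm20826 did at 9.21 and 9.21 CPM, and their reads can come from related copies elsewhere. At 54 h with lactate the levels were 47.6 and 37.9 CPM for Eif2s3y and 11.5 and 9.57 CPM for Uty, the first above and the second overlapping the lactate-free range.

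The list of minor ZGA and transient 2-cell burst genes had the highest median change of the 22 lists plotted. Minor ZGA begins at the end of the 1-cell stage, yet all 30 members tested had a positive change from 30 to 54 h. The name of the list therefore does not mean that its RNAs peaked early in these libraries. Of 30 tested, 18 were called higher and 0 lower, and the median log2 fold change was 4.98, against 5.97% called higher and a median of 0.15 over all genes. Zscan4d (mm39 chromosome 7, 10895301 to 10900111), which marks the 2-cell stage and takes part in telomere maintenance, was at 40.4 and 8.22 CPM early and 754 and 989 CPM late (log2 fold change 5.16, SE 0.83, edgeR adjusted p = 0.0238). Its early libraries lay well apart, and both lay far below the late ones. Zscan4a went from 4.34 and 1.65 to 179.5 and 260.5 CPM and Zscan4f from 1.46 and 0.611 to 24 and 35.9 CPM, but members of this cluster are nearly identical and their reads may be split between them. Gm21818, the member with the smallest p, was at 32.7 and 35.1 CPM early and 280.5 and 339 CPM late (log2 fold change 3.19, SE 0.20, edgeR adjusted p = 0.00489). Pramel7, of a family expressed in early embryos, went from 3 counts and 0 counts to 62.5 and 52.3 CPM, and Tdpoz3 and Tdpoz4, of another multicopy family, from 0 counts to 23.8 and 17.2 and to 19.2 and 15.6 CPM. With lactate 23 of 31 members were called higher, with a median of 5.71. The median moved to 7.04 without early replicate 1 and to 4.38 without early replicate 2. The number called higher dropped to 7 without late replicate 1 and to 8 without late replicate 2, with all 30 members positive in each case.

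Homeobox genes of the Obox family moved in opposite directions. Obox genes encode factors that bind promoters at the onset of genome activation, some stored by the oocyte and others made by the embryo. Obox6 rose from 2.37 and 0.893 CPM to 394 and 302 CPM (log2 fold change 7.68, SE 0.55, edgeR adjusted p = 0.00524), and Obox3 rose from 4.19 and 1.46 to 122 and 146 CPM. Crxos, a related homeobox gene, rose from 2.92 and 0.376 to 392 and 308 CPM (log2 fold change 7.63, SE 0.93, edgeR adjusted p = 0.0133). The stored members fell: Obox2 went from 2654 and 2576 CPM to 259 and 286 CPM (log2 fold change -3.26, SE 0.14, edgeR adjusted p = 0.00489), Obox1 from 7291 and 6447 to 848 and 1789 CPM and Obox7 from 1948 and 1263 to 151 and 402 CPM. Of 14 Obox, Crxos and Oog (oogenesin) genes tested, 3 were called higher and 5 lower, or 21.4% and 35.7% against 5.97% and 5.87% of all genes. The lower ones included Oog4 and Oog2, and the libraries of the stages were apart for each. On library totals 4 were higher and 4 lower. Reads of such paralogs can be misassigned.

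**Figure D2:**
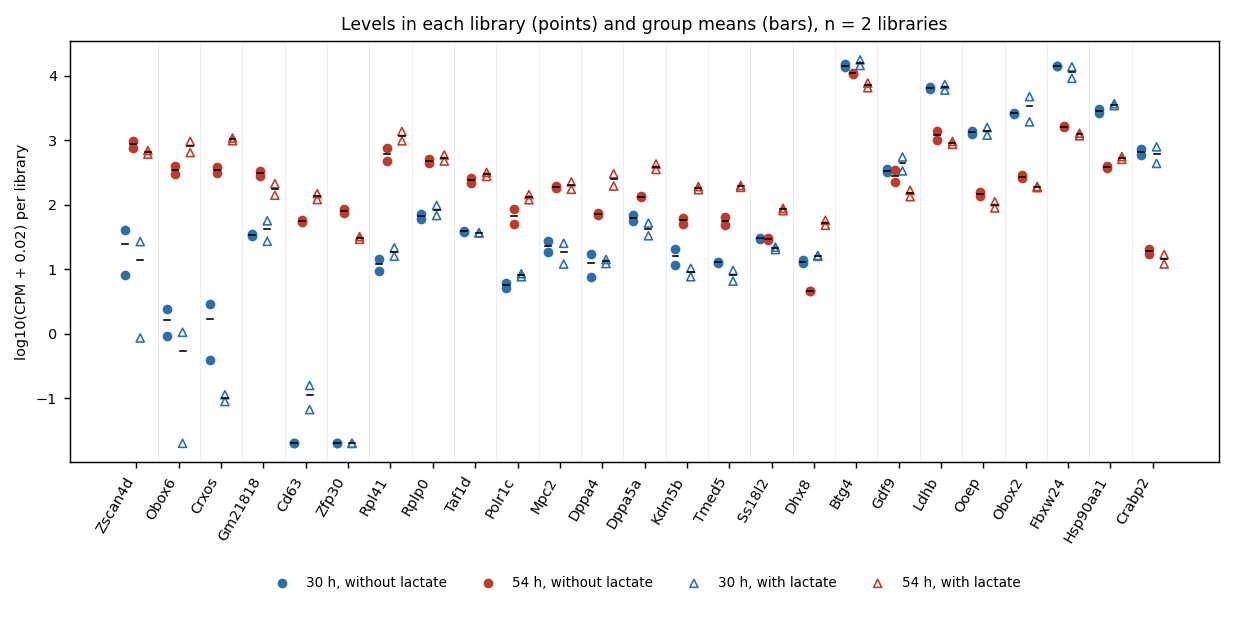
Levels of 25 genes as log10(CPM + 0.02): circles are the 2 libraries of each stage without lactate, triangles those with lactate, blue at 30 h and red at 54 h, and black bars are group means. From Zscan4d to Tmed5 the circles rose from blue to red, those of Ss18l2 overlapped, Dhx8 went down without and up with lactate, and from Ldhb to Crabp2 circles and triangles both went down.

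Cytosolic ribosomal protein genes, whose products form the ribosome itself, were called higher in 30 of 83 cases and lower in 2, or 36.1% and 2.41%, against 5.97% and 5.87% of all genes. A positive log2 fold change was found for 71 of the 83, against 54.1% of all genes, and the median was 1.54. Rpl41 was at 14.4 and 9.45 CPM early and 750.3 and 485 CPM late (log2 fold change 5.69, SE 0.37, edgeR adjusted p = 0.00489), the smallest p of the list. Rplp0, a stalk protein of the large subunit, rose from 73 and 60.7 to 437 and 508 CPM (log2 fold change 2.82), and Rpsa, of the small subunit, from 0.0488 and 0.094 to 13.7 and 11.4 CPM. The 2 that fell were Rpl11, a large-subunit protein that also restrains Mdm2, from 103 and 81.2 to 34.3 and 36.4 CPM (log2 fold change -1.38, SE 0.22, edgeR adjusted p = 0.0237), and Rps15a, from 123 and 111 to 51.1 and 54.2 CPM. With lactate 49 of 85 were called higher and 0 lower (edgeR), and the median was 2.80. Without 1 library the number called higher was 4 (late replicate 1), 9 (late replicate 2), 15 (early replicate 2) and 20 (early replicate 1), and the median stayed at 1.48 or above. Ribosomal protein genes have many processed pseudogenes that can share their reads.

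The factors that build ribosomes were split. Of 95 nucleolar ribosome biogenesis genes, 5 were called higher and 11 lower (5.26% and 11.6%, against 5.97% and 5.87% of all genes). The median was -0.09. On library totals 9 were higher and 6 lower and the median turned to 0.28, and it also turned to 0.15 without early replicate 1 and to 0.19 without late replicate 2. With lactate 19 were higher and 3 lower, with a median of 0.73. Taf1d, a subunit of the RNA polymerase I selectivity factor, rose from 38.2 and 39.2 to 263 and 214 CPM (log2 fold change 2.62, SE 0.20, edgeR adjusted p = 0.00588), and Nop16 from 0.926 and 0 to 51.5 and 42.1 CPM. Riok1, a kinase of late 40S maturation, fell from 419.9 and 447 to 105 and 111 CPM (log2 fold change -2.01, SE 0.16, edgeR adjusted p = 0.006). Among 32 RNA polymerase subunit genes 5 rose and 2 fell, or 15.6% and 6.25% against 5.97% and 5.87% of all genes. On library totals 8 rose and 1 fell. Polr1c, shared by polymerases I and III, rose from 6.12 and 5.12 to 85.1 and 49.9 CPM (log2 fold change 3.58, SE 0.38, edgeR adjusted p = 0.00972), while Polr2g, of the Pol II stalk, fell from 748 and 625 to 203 and 292 CPM (log2 fold change -1.47, SE 0.23, edgeR adjusted p = 0.0227). The others that changed were Polr3g, Polr2j, Polr2e and Polr2f, which rose, and Polr3a, which fell. Among 51 translation factors 7 rose and 11 fell, or 13.7% and 21.6% against 5.97% and 5.87% of all genes. Eif5a2 went up from 10.1 and 9.02 to 89 and 53.4 CPM and Eif1b down from 506 and 419 to 95.4 and 98 CPM. Both groups of libraries lay apart. On library totals the balance of the translation factors turned, to 12 higher and 6 lower.

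The core splicing list had calls that were lower more often than higher, 23 against 7 of 98, with a median of -0.28. The calls made up 23.5% and 7.14% of the list, against 5.87% and 5.97% of all genes. On library totals 13 were higher and 20 lower, and the median turned to 0.09. Snrpd3, an Sm ring protein, fell from 342 and 315 to 42.9 and 32.3 CPM (log2 fold change -3.13, SE 0.22, edgeR adjusted p = 0.00512), and Sf3b1, of the U2 particle, from 532 and 495 to 108 and 147 CPM. Snrnp25, of the minor spliceosome, rose from 7.09 and 11.1 to 101 and 87.5 CPM (log2 fold change 3.37, SE 0.32, edgeR adjusted p = 0.00791), and Snrpc, of U1, from 12.5 and 7.75 to 139 and 99.9 CPM. With lactate 15 rose and 14 fell of 97. Without late replicate 1 the counts were 0 higher and 6 lower, without late replicate 2, 2 and 13, and without either early library 3 and 16 (edgeR). The nuclear pore list gave 4 higher and 8 lower of 52, or 7.69% and 15.4% against 5.97% and 5.87% of all genes. On library totals it gave 12 higher and 7 lower. Among its members were the importin gene Kpna1 up from 2.68 and 0.658 to 96 and 61.6 CPM, and Nup85 and Nup93, of the pore scaffold, down from 155 and 143 to 18 and 15.8 CPM and from 117 and 111 to 7.66 and 3.92 CPM. The other 3 risers there, named after their values were seen, were Xpo1, Ranbp2 and Rangap1.

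**Figure D3:**
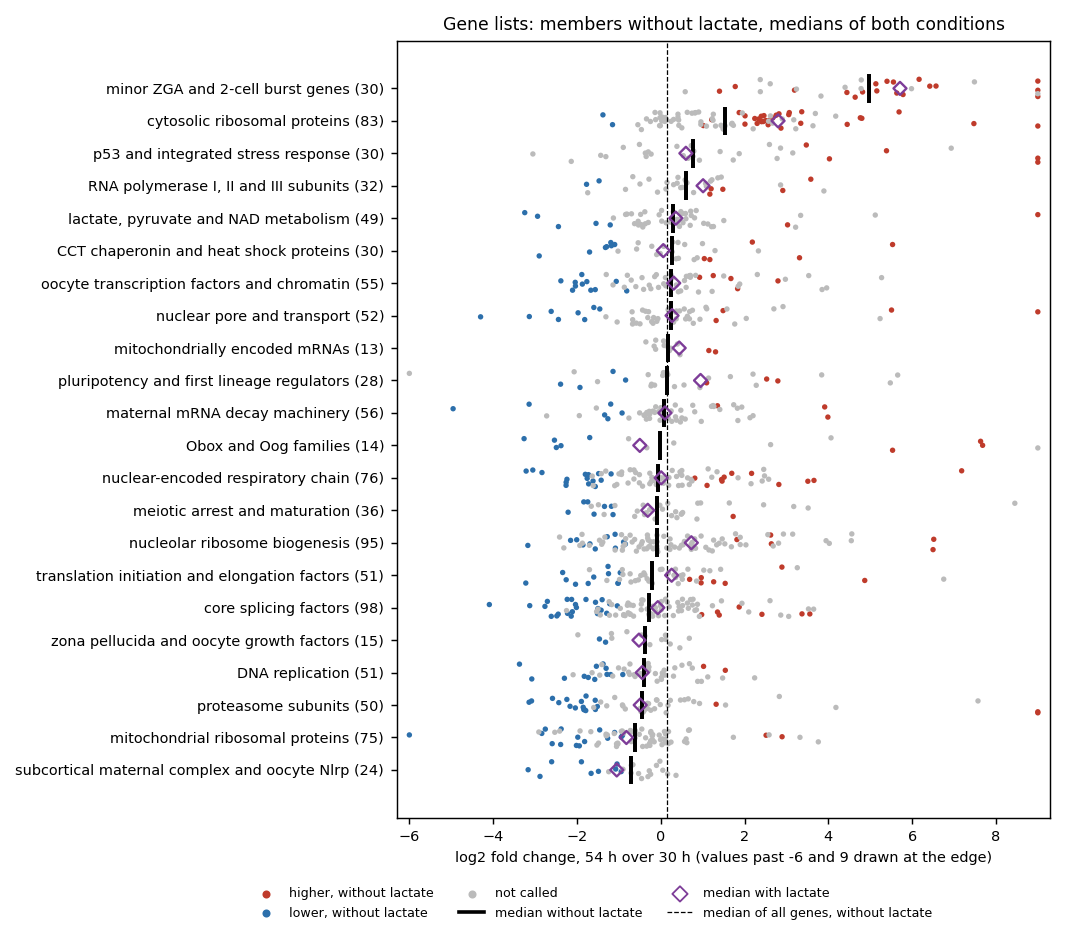
Log2 fold change, 54 h over 30 h, of every tested member of 22 gene lists (number tested in brackets): points are members without lactate, coloured by call, black bars their medians, and open diamonds the medians with lactate; values past -6 and 9 are drawn at the edge. Minor ZGA and cytosolic ribosomal protein genes stood farthest to the right of the dashed all-gene median of 0.15, and the subcortical maternal complex and mitochondrial ribosomal protein genes farthest to the left.

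Of 49 genes of lactate, pyruvate and NAD metabolism, 2 were called higher and 5 lower, or 4.08% and 10.2% against 5.97% and 5.87% of all genes. On library totals the counts were 3 and 3. Ldhb (mm39 chromosome 6, 142435672 to 142454586), the lactate dehydrogenase subunit that the oocyte stores, fell from 6695 and 6316 CPM to 1008 and 1387 CPM (log2 fold change -2.44, SE 0.19, edgeR adjusted p = 0.006). Ldha, the other subunit, had 0 counts in both early libraries and 4.44 and 3.3 CPM in the late ones (adjusted p = 0.0419, edgeR). The mRNAs of the drug's targets thus moved in opposite directions, with Ldha at low levels and its call near the threshold. Mpc2, a subunit of the mitochondrial pyruvate carrier, rose from 18.6 and 27.6 to 194 and 182 CPM (log2 fold change 3.03, SE 0.27, edgeR adjusted p = 0.00729). The deacylase genes Sirt4, from 71.5 and 77.1 to 9.61 and 6.06 CPM, and Sirt6, from 37.2 and 35.2 to 3.53 and 5.91 CPM, and the pyruvate dehydrogenase components Dld, from 137 and 119.7 to 33.1 and 54.8 CPM, and Pdhx, from 342 and 301 to 107 and 171 CPM, fell. Of 76 nuclear genes of the respiratory chain 11 rose and 15 fell (14.5% and 19.7%, against 5.97% and 5.87% of all genes). On library totals, however, 17 rose and 11 fell. Here Uqcrq of complex III went up from 20.4 and 16.2 to 116 and 143 CPM and its partner Uqcrc2 down from 171 and 149 to 18.9 and 19.7 CPM. Mitochondrial ribosomal protein genes gave 15 of 75 lower and 2 higher, or 20% and 2.67% against 5.87% and 5.97% of all genes. Of the 75, 55 had a negative log2 fold change, and the median was -0.61. On library totals they gave 7 lower, 5 higher and a median of -0.24. Mrps33 fell from 499.5 and 461 to 65.9 and 76.3 CPM, and the 2 that rose were Mrpl41, from 8.14 and 5.59 to 49.4 and 53.1 CPM, and Mrps26, from 5.02 and 7.94 to 43.6 and 30.2 CPM.

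RNA made inside mitochondria rose for some genes. The complex I gene mt-Nd1 was at 4216 and 3561 CPM early and 8891 and 8343 CPM late (log2 fold change 1.15, SE 0.13, edgeR adjusted p = 0.0125), and the complex IV gene mt-Co1 at 3964 and 2754 CPM early and 8695 and 7943 CPM late (log2 fold change 1.31, SE 0.20, edgeR adjusted p = 0.0217). These were the 2 of 13 mitochondrial mRNAs called (15.4% higher, against 5.97% of all genes). The median of the 13 was 0.17, near that of all genes. The mitochondrial rRNA genes mt-Rnr2, from 4722 and 4015 to 14150 and 12010 CPM, and mt-Rnr1, from 1538 and 1021 to 4154 and 3688 CPM, rose as well, so both rRNAs and both called mRNAs had late libraries above the early ones.

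Some stress genes rose from low levels. Of 30 genes of the p53 and integrated stress responses, 5 were called higher and 0 lower (edgeR), or 16.7% and 0% against 5.97% and 5.87% of all genes, with a median of 0.78. Besides Psat1 these were Trib3, from 0 counts to 5.22 and 3.92 CPM, Pmaip1 (Noxa), from 0.683 and 0.282 to 19.3 and 22.6 CPM, Nupr1, from 2.58 and 0.47 to 22.7 and 28.3 CPM, and the heme oxygenase gene Hmox1, from 0.585 and 1.32 to 10.4 and 10.6 CPM. With lactate 4 of 29 were called higher and 1 lower, with a median of 0.60. Among chaperones, Hsp90aa1 fell from 2638 and 3101 CPM to 367 and 401 CPM (log2 fold change -2.90, SE 0.16, edgeR adjusted p = 0.00489), Hspa4 rose from 1.63 and 3.62 to 29 and 22.8 CPM, and Cct6a of the CCT ring rose from 1.05 and 0.094 to 23.2 and 33.3 CPM. In all 5 of 30 were called higher and 7 lower, or 16.7% and 23.3% against 5.97% and 5.87% of all genes. On library totals 6 were higher and 3 lower.

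Among regulators of pluripotency and the first lineages, 3 of 28 were called higher and 4 lower, or 10.7% and 14.3% against 5.97% and 5.87% of all genes. On library totals the counts were 4 and 2. Zfp42 (Rex1) rose from 2.17 and 2.3 to 17.1 and 14 CPM (log2 fold change 2.80, SE 0.49, edgeR adjusted p = 0.0294). Dppa4, a chromatin protein of pluripotent cells, rose from 17.4 and 7.47 to 75.7 and 68.7 CPM (log2 fold change 2.53, SE 0.46, edgeR adjusted p = 0.0312), and Dppa5a rose from 55.6 and 68.8 to 136 and 130.1 CPM (log2 fold change 1.10, SE 0.20, edgeR adjusted p = 0.0317). The genes lower at 54 h were Dppa3 (Stella), Esrrb, Gata3 and Klf17. Dppa3, which shields the maternal genome from demethylation, was at 23790 and 19360 CPM early and 9188 and 10400 CPM late (log2 fold change -1.14, SE 0.15, edgeR adjusted p = 0.0149). Pou5f1 (Oct4) was at 7.43 and 3.15 CPM early and 6.43 and 2.19 CPM late, its libraries overlapped, and it was not called (adjusted p = 0.872, edgeR). Of 55 oocyte transcription factor and chromatin genes 5 rose and 11 fell (9.09% and 20%, against 5.97% and 5.87% of all genes). On library totals, however, 10 rose and 7 fell. The DNA demethylase gene Tet1 rose from 7.97 and 7.28 to 75.7 and 30.5 CPM and the H3K4 demethylase gene Kdm5b from 20.4 and 11.6 to 63.3 and 51 CPM, while Zfp57, which guards imprints, fell from 1097 and 1003 to 241 and 271 CPM and Dnmt1, the maintenance methyltransferase, from 99.3 and 122 to 30.6 and 23.2 CPM.

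The cleared transcripts were led by abundant oocyte mRNAs. The F-box gene Fbxw24 fell from 14390 and 14060 CPM to 1598 and 1645 CPM (log2 fold change -3.13, SE 0.11, edgeR adjusted p = 0.00489). Pttg1 (securin), which holds sister chromatids together until anaphase, fell from 14600 and 13530 to 2139 and 2479 CPM (log2 fold change -2.61, SE 0.13, edgeR adjusted p = 0.00489), and Rfpl4, a RING finger gene of the oocyte, from 9902 and 9426 to 1158 and 1462 CPM (log2 fold change -2.88, SE 0.16, edgeR adjusted p = 0.00489). Early and late libraries lay far apart for all 3. Leaving out any 1 library kept Fbxw24 within -3.17 to -3.09 on the log2 scale. Bcl2l10, an oocyte member of the Bcl-2 family, fell from 8993 and 7410 to 942 and 1256 CPM, and Mphosph6, an exosome cofactor, from 26380 and 22560 to 5615 and 8214 CPM. Other abundant oocyte genes were higher late: Omt2b went from 14580 and 12680 to 21380 and 21630 CPM (log2 fold change 0.66, SE 0.12, edgeR adjusted p = 0.0292) and its near-identical neighbour Omt2a from 8308 and 7009 to 14780 and 13960 CPM. CPM are shares of a library, so a higher CPM need not mean more molecules per embryo.

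The largest falls were ranked among named genes with an early mean of at least 20 CPM. Crabp2 (mm39 chromosome 3, 87855973 to 87860683), which carries retinoic acid, fell from 722 and 591 CPM to 17.4 and 20.7 CPM (log2 fold change -5.11, SE 0.22, edgeR adjusted p = 0.00489), and Rgs2, a regulator of G protein signalling, from 2583 and 2509 to 100.5 and 153 CPM (log2 fold change -4.33, SE 0.26, edgeR adjusted p = 0.00489). Pabpn1l, an embryonic poly(A)-binding protein that recruits the decay machinery to maternal mRNA, fell from 142 and 72.3 to 2.52 and 4.37 CPM (log2 fold change -4.96, SE 0.51, edgeR adjusted p = 0.00918). The leucyl-tRNA synthetase gene Lars went from 27 and 38.1 to 0.781 and 1.12 CPM, the citric acid cycle gene Suclg1 from 64.6 and 49.1 to 1.56 and 4 CPM, and the inositol phosphate kinase gene Ip6k2 from 44.7 and 58.6 to 3.45 and 2.53 CPM. Mterf1b, a mitochondrial transcription termination factor, had 35.8 and 36.8 CPM early and 0.832 and 0.0248 CPM late (log2 fold change -6.40, edgeR adjusted p = 0.0415), and with 1 library left out its log2 fold change ranged over -10.29 to -5.40.

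The subcortical maternal complex, a protein lattice of oocyte and embryo, had mostly lower mRNA levels. Of 24 genes of the complex and of the oocyte Nlrp family, 9 were called lower and 0 higher by edgeR, 21 had a negative log2 fold change, and the median was -0.71, which stayed below 0 at -0.34 on library totals. Over all genes tested 5.87% were called lower, and without 1 library 5 or 6 of the 24 were. Ooep, a core subunit, fell from 1401 and 1257 CPM to 138 and 158 CPM (log2 fold change -3.17, SE 0.16, edgeR adjusted p = 0.00489), Nlrp5 (Mater) from 648 and 813 to 109 and 88.8 CPM, and Padi6 from 62 and 74.3 to 22.2 and 26.4 CPM. With lactate 9 of 24 were also called lower, with a median of -1.05. Proteasome genes gave 16 of 50 lower and 3 higher, or 32% and 6% against 5.87% and 5.97% of all genes. On library totals 11 were lower and 5 higher, and the median moved from -0.45 to -0.09. Psmc5, an ATPase of the regulatory particle, fell from 204 and 185 to 22.2 and 23.6 CPM (log2 fold change -3.08, SE 0.19, edgeR adjusted p = 0.00489), and the 3 higher ones were Psme4, from 207 and 212 to 515 and 532 CPM, and Psmb10 and Psme1, which went from 0 counts to 8.87 and 3.95 and to 12.5 and 3.25 CPM. Among 51 DNA replication genes 12 fell and 2 rose, or 23.5% and 3.92% against 5.87% and 5.97% of all genes. On library totals 8 fell and 3 rose. Rpa3, of the single-strand binding complex, fell from 574 and 491 to 65.5 and 60.6 CPM (log2 fold change -3.08, SE 0.18, edgeR adjusted p = 0.00489). The origin genes Orc2 and Orc1 rose from 45.2 and 42.5 to 92.6 and 85.5 and from 10.2 and 15 to 34.8 and 38.6 CPM.

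The machinery of maternal mRNA decay gave 3 of 56 higher and 6 lower, or 5.36% and 10.7% against 5.97% and 5.87% of all genes, with a median of 0.08. On library totals the balance turned, to 7 higher and 2 lower, where 1819 of all 18604 genes were higher and 685 lower. Zar1l, an RNA-binding protein that keeps maternal mRNA stored, fell from 86.1 and 121 to 11.2 and 12.2 CPM (log2 fold change -3.14, SE 0.27, edgeR adjusted p = 0.00709). The poly(A)-binding protein gene Pabpc1 rose from 1.22 and 2.26 to 25.1 and 26.9 CPM (log2 fold change 3.91, SE 0.50, edgeR adjusted p = 0.0149), as did Tob1, from 1.34 and 2.3 to 16.4 and 41.1 CPM, and the deadenylase gene Cnot8, from 50.7 and 60.2 to 158 and 125 CPM. Btg4, the adaptor that brings the CCR4-NOT deadenylase to maternal mRNAs, was at 15130 and 13520 CPM early and 10680 and 11180 CPM late, lower in both late libraries but not called (log2 fold change -0.39, SE 0.11, edgeR adjusted p = 0.0774). Of 36 genes of meiotic arrest and maturation 7 fell and 1 rose, or 19.4% and 2.78% against 5.87% and 5.97% of all genes. On library totals 6 fell and 4 rose. The checkpoint gene Mad2l1 fell from 3566 and 3252 to 1479 and 1535 CPM and Ccnb1 (cyclin B1) from 5485 and 5103 to 1510 and 2002 CPM, while Cdk1 rose from 87.2 and 81.5 to 268 and 291 CPM (log2 fold change 1.73, SE 0.17, edgeR adjusted p = 0.00796). Mos, whose product holds the egg in metaphase, was at 10.3 and 10.9 CPM early and 4.64 and 9.11 CPM late, lower in both late libraries but not called (edgeR adjusted p = 0.527).

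Of 15 zona pellucida and oocyte growth factor genes, 2 were called lower and 0 higher, and 13 were not called (on library totals 1 lower and 1 higher). Most genes were not called: of all genes tested 11.8% were called in either direction, so the 13 do not set this list apart. Over all genes 5.87% were lower, against 13.3% in this list. The 2 were Oosp3, an oocyte-secreted protein gene, from 2204 and 1922 to 672 and 825 CPM (log2 fold change -1.46, SE 0.17, edgeR adjusted p = 0.0118), and Cd9, the egg's fusion tetraspanin, from 104 and 110.4 to 52.4 and 33.5 CPM. Zp3, the sperm-binding zona glycoprotein, was at 36.2 and 37.7 CPM early and 36 and 44.2 CPM late, with overlapping libraries (log2 fold change 0.12, SE 0.24, edgeR adjusted p = 0.817). Gdf9, the oocyte growth factor, was at 319 and 357 CPM early and 224 and 340.5 CPM late, again overlapping (log2 fold change -0.26, SE 0.24, edgeR adjusted p = 0.554), and with lactate it fell from 552 and 335 to 168 and 134 CPM (adjusted p = 0.0403, edgeR).

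The same stage comparison with lactate used 4 other libraries, so calls may be set side by side. Of 19443 genes tested with lactate, 1591 (8.18%) were higher and 1063 (5.47%) lower. These counts rest on both late libraries: without late G&N replicate 1, 204 were higher and 16 lower, and without late G&N replicate 2, 227 and 56. Among 17126 genes tested in both, 666 were called higher in both conditions, which is 60.8% of those higher without lactate and 44.1% of those higher with it, and 642 were called lower in both, 58.8% and 60.6%. No gene was called in opposite directions. The log2 fold changes correlated across genes at Pearson's r = 0.697 and Spearman's rho = 0.723, as a description, since genes are not independent and share the libraries of their condition.

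**Figure D4:**
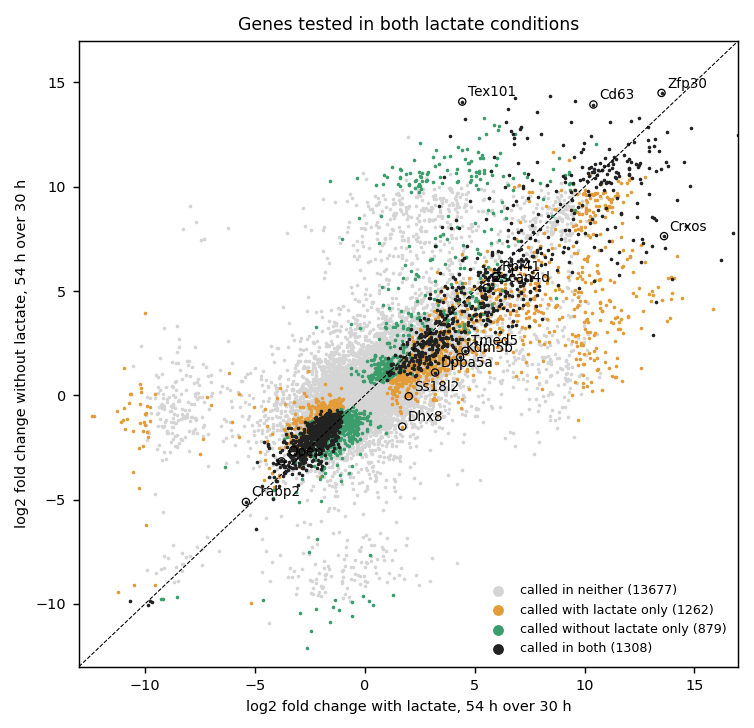
Log2 fold change, 54 h over 30 h, without lactate (vertical) against with lactate (horizontal) for 17126 genes tested in both, coloured by where the gene passed an adjusted p under 0.05; the dashed line marks equal change. The 1308 genes called in both lie in the lower left or the upper right, Ss18l2, Dppa5a, Kdm5b and Tmed5 lie below the line, and Dhx8 lies at -1.50 without and 1.71 with lactate.

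Nearly all genes that rose with lactate also had a positive change without it, at a smaller size. Of 1591 genes that rose with lactate by a log2 fold change of at least 1, 1511 were tested without lactate: 666 were called higher, 820 were positive but not called, and 25 were negative, none of them called. Their median log2 fold change was 5.48 with lactate and 3.76 without, and 1243 of them changed less without lactate. Choosing genes in 1 condition favours that condition, so the reverse is given beside it: 1042 genes that rose without lactate and were tested with it had medians of 4.81 without and 4.32 with, and 535 of them changed less with lactate. Of 1058 genes that fell with lactate, 642 were called lower without it, and the medians were -2.11 with and -1.57 without, whereas 1006 genes that fell without lactate had medians of -1.82 without and -1.85 with.

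Silent genes were followed in the same way, as a description. A total of 461 genes had at most 3 counts in all 4 early libraries of both conditions and at least 1 CPM in both late libraries with lactate, again on library totals. Without lactate 225 of these reached 1 CPM in both late libraries, 149 in 1 and 87 in neither, with 26 at or below 3 counts in both, and the median ratio of levels, without over with, was 0.508. In reverse, 377 such genes were detected late without lactate, 225 of them also in both libraries with it, at a median ratio, with over without, of 0.733. Zfp30 was higher late without than with lactate, at 87 and 75.7 against 29.1 and 32 CPM, and Cd63 was lower, at 57.5 and 53.2 against 120.5 and 149 CPM; these late levels were not tested against each other.

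**Figure D5:**
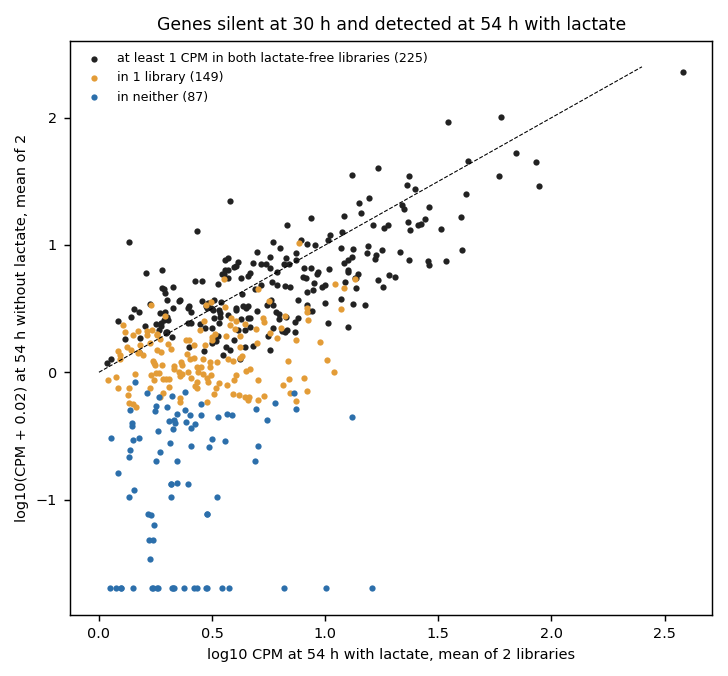
Level at 54 h, mean of 2 libraries, with lactate (log10 CPM on library totals, horizontal) and without (log10 of CPM + 0.02, vertical) for the 461 genes silent in all 4 early libraries and detected late with lactate, coloured by the number of lactate-free late libraries with at least 1 CPM. Most points lie below the dashed line of equal levels, and the points along the bottom had 0 counts in both lactate-free late libraries.

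Whether a gene's change differed between the conditions was tested as the interaction of stage and lactate in all 8 libraries. By edgeR 0 of 22287 genes passed an adjusted p under 0.05, with a smallest adjusted p of 0.487, while 1683 genes reached an unadjusted p under 0.05, where 1114 would by chance. DESeq2 called 74 genes (0.412%) more positive and 150 (0.835%) more negative without lactate, of 17966 with an adjusted p. The differences named next therefore did not pass the main test. Of the single genes in the next paragraph, DESeq2 called Dhx8, Ss18l2, Tmed5, Kdm5b, Crxos and Dppa5a more negative without lactate, but not Dppa4 or Usp29. Cytosolic ribosomal protein genes had a negative interaction in 77 of 85 cases, with 26 of the 85 at an unadjusted p under 0.05 in either direction and a median of -1.12 against 0.06 over all genes. Nucleolar genes were negative in 76 of 95, with a median of -0.84. The subcortical maternal complex list was positive in 17 of 24, with a median of 0.50, that is, a less negative change without lactate. Over all 22287 genes 52% were positive. A negative lean was not particular to ribosome genes: RNA polymerase subunits were negative in 24 of 32, chaperones in 23 of 30 and splicing factors in 67 of 98. The meiotic list was negative in 15 of 38.

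Among single genes with the smallest interaction p, Dhx8 (mm39 chromosome 11, 101623728 to 101659832), an RNA helicase that releases spliced mRNA, went from 12.3 and 13.7 to 4.59 and 4.62 CPM without lactate and from 16.3 and 15.9 to 48 and 57.3 CPM with it (interaction -3.26 on the log2 scale, unadjusted p = 9.67e-05, edgeR, adjusted p = 0.494). Ss18l2 stayed at 29.4 and 30.6 CPM early and 28.2 and 30.1 CPM late without lactate, with overlapping libraries, and went from 20.2 and 22.1 to 81.1 and 88.2 CPM with it. Tmed5, a cargo receptor of the secretory pathway, rose in both, from 12.9 and 12.5 to 64 and 47.8 CPM without and from 6.53 and 9.59 to 186 and 199 CPM with lactate. The late levels of Ss18l2 and Tmed5 with lactate lay above both lactate-free ones. Kdm5b rose by 1.84 without and 4.34 with lactate on the log2 scale. Crxos went from 2.92 and 0.376 CPM early (120 and 8 counts) to 392 and 308 CPM late without lactate. With lactate it went from 0.0689 and 0.0933 to 1085 and 986 CPM. Dppa5a, Dppa4 and Usp29 were check genes, named whatever their interaction p. Dppa5a rose by 1.10 without and 3.20 with lactate on the log2 scale, and Dppa4 by 2.53 and 4.24. The ubiquitin-specific protease gene Usp29 was at 21 and 8.36 CPM early and 15.2 and 11.2 CPM late without lactate, overlapping, and at 13.1 and 14.6 CPM early and 36.9 and 32.9 CPM late with it.

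Other genes with a small interaction p had a more positive or less negative change without lactate, apart from Nat2. Plbd1, a phospholipase B-like gene, was at 20.7 and 15.7 CPM early and 6.86 and 11.2 CPM late without lactate and at 10.9 and 15.9 CPM early and 0 counts late with it. Slc35b3, a carrier of the Golgi, was at 11.1 and 9.82 CPM early and 1.97 and 8.69 CPM late without and at 15 and 13.3 CPM early and 0 counts late with lactate. Erich1 was at 13 and 11.4 CPM early and 1.94 and 3.75 CPM late without and at 11.3 and 15.5 CPM early and 0.0996 and 0.0617 CPM late with lactate. Nat2, an arylamine acetyltransferase, showed the reverse, with 12.7 and 18.7 CPM early and 0 counts late without lactate and 17.5 and 10.9 CPM early and 3.06 and 1.56 CPM late with it. Tex101, the kinase gene Dyrk3 and Lrrc75a rose from 0 or 1 early count without lactate, to 46.3 and 75.5, 19.4 and 20 and 5.32 and 9.26 CPM, while with lactate they already had 2.03 and 1.52, 1.1 and 1.31 and 6.39 and 2.87 CPM early. None of these 7 genes passed the interaction test after adjustment (edgeR, adjusted p of 0.487 to 0.494). DESeq2 called the interaction of each of the 7, Nat2 more negative and the others more positive without lactate.

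Gene build was compared as a description. Of the genes called higher 78.1% were protein-coding, of those called lower 88.4%, and of all tested 72.8%. Coding genes called higher had a median of 7 exons, 2800 exonic bases and a span of 19.3 kb, those called lower 8 exons, 2740 bases and 25.2 kb, and all tested 9 exons, 3320 bases and 27.8 kb. The interquartile range of spans ran from 7.83 to 45.7 kb for the higher genes and from 12.9 to 50.1 kb for the lower ones.

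Short motifs were searched on both strands in the 250 bases upstream of the start of the reference transcript, in 862 coding genes called higher, 962 called lower and 13435 tested. The core GGATTA, bound by OTX- and OBOX-type homeodomains, stood upstream of 11.7% of the higher, 8% of the lower and 7.23% of all genes, and the E-box CACGTG of 9.63%, 5.93% and 7.48%. The CCAAT box (CCAAT) was found in 41.2%, 38.3% and 37.1%, the TATA box (TATAAA) in 9.4%, 7.59% and 8.78%, and the ETS motif CCGGAAG in 8.58%, 11.2% and 9.22%. The longer NRF1 and DUX motifs were found in 0.928% and 0.116% of the higher, 1.14% and 0% of the lower and 0.93% and 0.127% of all genes. Among the 83 ribosomal protein genes the ETS motif reached 21.7%. Matches were counted for each motif on its own, also where they overlapped another. The shares are a description of letters, not of binding. The 150 bases upstream of 4 genes are shown, from GRCm39, 5′ to 3′ on the gene's strand, to let the reader see an activated ribosomal protein promoter, a 2-cell burst promoter and a translation factor promoter with GGATTA in either orientation (TAATCC on the other strand), beside the promoter of a cleared oocyte gene; capitals mark matches to these motifs.
Rpl41 (chr10:128385023-128385172, minus strand): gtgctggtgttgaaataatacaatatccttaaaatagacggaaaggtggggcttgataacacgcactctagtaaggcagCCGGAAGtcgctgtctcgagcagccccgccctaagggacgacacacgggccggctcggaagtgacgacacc
Gm21818 (chr13:120633793-120633942, plus strand): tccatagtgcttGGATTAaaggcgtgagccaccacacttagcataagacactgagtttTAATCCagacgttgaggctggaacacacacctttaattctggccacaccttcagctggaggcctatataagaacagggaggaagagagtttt
Eif5a2 (chr3:28835211-28835360, plus strand): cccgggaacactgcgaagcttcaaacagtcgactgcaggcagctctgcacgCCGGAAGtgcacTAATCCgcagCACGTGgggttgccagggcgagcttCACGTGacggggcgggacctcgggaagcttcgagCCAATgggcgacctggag
Ooep (chr9:78286008-78286157, minus strand): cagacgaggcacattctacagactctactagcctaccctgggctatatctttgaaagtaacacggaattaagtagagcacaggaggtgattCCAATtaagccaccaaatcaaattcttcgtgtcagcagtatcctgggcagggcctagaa
Rpl41 held 1 ETS match and Gm21818 a pair of GGATTA matches in opposite orientations, while the cleared gene Ooep held 1 CCAAT match. Gm21818 and Eif5a2 were picked among the named higher genes because GGATTA stood in their 150 bases. Rpl41 and Ooep were picked without a motif condition. The GGATTA in Gm21818 and Eif5a2 therefore follows from the choice, and no contrast with Ooep can be drawn from it. The stretch of Rpl41 had 11 CpG and that of Eif5a2 14, against 3 in Ooep and 2 in Gm21818. The median over 250 bases was 13 CpG upstream of the higher, 12 upstream of the lower and 11 upstream of all coding genes tested.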

How the data were processed

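RNA-seq libraries were made from pools of mouse 2-cell embryos. Per the labels and the methods, the authors used FastQC and Trim Galore on the reads, HISAT2 for alignment to mm39 and featureCounts for counting, and the deposited table holds raw counts for 56923 gene IDs in all 14 libraries of 7 groups. Versions and the strand setting are not given in the sources used here, so overlapping and antisense genes are uncertain. The methods give 3 replicates per group and the table used here holds 2.

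Counts were analysed with edgeR 4.0.16 (limma 3.58.1, R 4.3.3): low counts were filtered, libraries were scaled by TMM, and the stage effect was fitted by the quasi-likelihood test in the 4 libraries of each lactate condition, with the interaction in all 8. A gene was called at a Benjamini-Hochberg adjusted p under 0.05. CPM use library sizes scaled by TMM within the 4 libraries of a lactate condition, and a fold against a group at 0 was set against 3 counts over its libraries on the same scale. Sets of silent genes use library totals. Depth was 23473359 to 47998020 counts in the G&N-L libraries and 33656717 to 61275465 in the G&N libraries. Promoters were read from GRCm39, the assembly of mm39. Scripts were tested on simulated data, in which the share of false calls was above the nominal one in each fit. The alternatives were DESeq2 1.42.0, its size factors, library totals, other count filters, all libraries in a single fit, the replicate number as a block, stricter thresholds and leaving out each library.

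The members and gene lists were chosen with earlier results of these data known. Named genes were, by rule, the member of each list with the smallest p in each direction, the 8 largest rises and falls at 20 CPM or more with libraries apart, the 6 most abundant called genes of each direction, the 6 smallest interaction p of each sign, and 11 check genes. Predicted and clone-named genes were left out except from lists. Further list members, Y-linked genes and comparisons of single lists were named after their values were seen. One further promoter sequence is not reported here.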

Additional observations from a re-analysis of the deposited data

Results flagged for a closer look

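Among the named genes, Dhx8 was picked out because every library moved one way without lactate and the opposite way with it. Genes that were not named were not searched for this. Dhx8 had been named for its small interaction p, a choice that favours such opposite movement. Its stage change was -1.50 on the log2 scale without lactate (edgeR adjusted p = 0.0858) and 1.71 with lactate (edgeR adjusted p = 0.0311), and the interaction was -3.26 (unadjusted p = 9.67e-05, edgeR adjusted p = 0.494), so the difference did not pass the test after adjustment. By DESeq2 the interaction of Dhx8 was called, at -3.322 on the log2 scale (DESeq2 adjusted p = 9.022e-07). With 2 libraries per group, an interaction of this size in 1 gene of 22287 rests on 8 values.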

How the results depend on the processing

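The 2203 genes called without lactate kept their direction under each alternative in which they were tested (1690 of them with at least 10 counts in every library), while the number called moved. Choosing them by a call on the same libraries favours a kept direction. DESeq2 gave 3124 higher and 2094 lower, library totals 1819 and 685, and all 14 libraries in a single fit 1831 higher. A log2 fold change of at least 2 left 422 lower. Leaving out 1 library gave 115 to 906 higher and 220 to 487 lower, where a stage then has 1 library, assumed to vary like the others. With lactate the number higher was 3635 by DESeq2, 2892 without a filter, 2444 with all 14 libraries and 204 to 1794 with 1 library left out. The number lower was 2324 by DESeq2, 618 on library totals, 2168 without a filter, 1642 with 8 libraries in a single fit, 598 at a log2 fold change of at least 2 and 16 to 762 with 1 left out. The interaction gave 74 more positive and 150 more negative by DESeq2, 129 and 232 without a filter, 1 more negative with all 14 libraries, and 0 to 5 and 0 to 21 with 1 library left out. Why the counts moved was not tested.

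Of the genes that rose with lactate, 106 to 630 were called without it when 1 library was left out, with a median of 3.65 to 4.82, and the median was 4.19 for those past a log2 fold change of 2 and 2.76 for those chosen by DESeq2. Of the genes that fell, 200 to 385 were called with 1 left out, with a median of -1.62 to -1.52, and a list at a log2 fold change of at least 2 gave 370 called and a median of -1.98, against -1.34 by DESeq2. At 5 CPM 170 genes went from silent to detected and 3 the other way. On library totals 6 lists turned positive: nucleolar 0.28, splicing 0.09, translation 0.16, respiratory chain 0.30, meiotic 0.28 and Obox 0.35.

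With the replicate number as a block, 699 genes were higher and 692 lower without lactate, of which 1321 are among the 2203. The numbers share no stated origin, and the deviations of same-numbered libraries correlated at r = -0.0582 over 18604 genes, so they were not treated as pairs.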
